A study of Mus musculus with 2 samples.

Results

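Fibroblast growth factor (FGF) signalling in neural progenitors was examined here through the chromatin around 10 of its genes. These were the ligand genes *Fgf8* and *Fgf15*, the receptor genes *Fgfr1*, *Fgfr2* and *Fgfr3*, the feedback inhibitor genes *Spry1*, *Spry2* and *Spry4*, and the ETS transcription factor genes *Etv4* and *Etv5*. An interval of open chromatin was given to a gene when, of all transcription start sites (TSSs) of protein-coding transcripts in the GENCODE annotation of mm10, the nearest was one of that gene's. By this rule, 164 of the 119502 intervals belonged to the 10 genes, and they took up 0.137% of the intervals and 0.187% ± 0.001 (SD, n = 2) of all counts. Nearness is not evidence that an interval acts on the gene it is given to.

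The sorted cells descended from Olig2-2A-mKate2, a reporter line of mouse embryonic stem cells in which the fluorescent protein mKate2 is made from the *Olig2* gene and so marks progenitors of motor neurons (pMN). They were grown with 10 ng/ml bFGF, itself an FGF, until day 3, with 5 µM of the Wnt pathway activator CHIR99021 for 20 hours within that time, and from day 3 with 100 nM retinoic acid and 100 nM of the Shh agonist SAG. On day 5, living mKate2-positive cells were sorted and 50000 cells entered each Omni-ATAC reaction, in which the enzyme Tn5 cuts open DNA. There were 2 libraries of this single group, replicates 1 and 2, with 31876165 and 31672240 counts over the intervals, so that no condition could be set against another. All cells were of this 1 line, and since the sort used the reporter alone, young motor neurons that still carry mKate2 and cells that also make NKX2.2 were not kept out. Nothing in the labels says whether the libraries came from separate differentiations, so the spread between them may be technical.

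FGFs bind receptor tyrosine kinases at the cell surface, which signal through adaptor proteins to the Ras, Raf, MEK and ERK cascade. ERK signalling turns on the Etv4 and Etv5 factors, which carry the response to the genome, and the Sprouty proteins, which dampen the same cascade. In the growing embryo, FGFs from the tail end hold progenitors of the spinal cord in an immature state, and retinoic acid opposes them as the cells become neural.

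The sequences below are from strongly accessible places in the set. They are the 250 bases upstream of the TSS for the promoter with the most counts per kb, *Fgfr1*, and the central 200 bases of the strongest distal interval of *Etv5*, *Fgfr2*, *Fgfr3* and *Spry2*. The *Fgfr1* interval starts at base 25518586, so that the earliest bases of that stretch lie just outside it. A distal interval is one that overlaps no protein-coding TSS. That of *Fgfr2* lies upstream of the main *Fgfr2* promoter, in an intron of a longer transcript. All are from RefSeq's GRCm38.p6 assembly (mm10), 5′ to 3′, with the promoter on the strand of the gene. Capitals mark letters that matched 1 of 7 motifs searched on both strands, which are given with their frequencies further on.
Fgfr1 promoter, chr8:25518509-25518758, plus strand: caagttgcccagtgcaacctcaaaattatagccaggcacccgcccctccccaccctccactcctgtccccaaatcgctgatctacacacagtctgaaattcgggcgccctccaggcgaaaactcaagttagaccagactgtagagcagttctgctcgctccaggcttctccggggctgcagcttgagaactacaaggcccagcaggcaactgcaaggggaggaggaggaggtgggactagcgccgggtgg
Etv5 intergenic interval, chr16:22380089-22380288, plus strand: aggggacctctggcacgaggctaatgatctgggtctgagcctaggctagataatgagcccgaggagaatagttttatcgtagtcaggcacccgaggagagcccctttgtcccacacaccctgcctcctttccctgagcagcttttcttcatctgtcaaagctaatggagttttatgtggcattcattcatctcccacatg
Fgfr2 intronic interval, chr7:130335484-130335683, plus strand: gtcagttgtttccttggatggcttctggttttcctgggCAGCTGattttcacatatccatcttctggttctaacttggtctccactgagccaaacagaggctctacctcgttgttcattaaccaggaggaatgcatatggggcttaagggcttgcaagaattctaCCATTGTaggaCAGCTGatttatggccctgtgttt
Fgfr3 intergenic interval, chr5:33695331-33695530, plus strand: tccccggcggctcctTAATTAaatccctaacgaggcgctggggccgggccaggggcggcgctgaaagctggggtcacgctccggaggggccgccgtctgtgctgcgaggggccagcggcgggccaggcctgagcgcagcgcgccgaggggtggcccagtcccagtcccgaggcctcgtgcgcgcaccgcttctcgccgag
Spry2 intergenic interval, chr14:105732604-105732803, plus strand: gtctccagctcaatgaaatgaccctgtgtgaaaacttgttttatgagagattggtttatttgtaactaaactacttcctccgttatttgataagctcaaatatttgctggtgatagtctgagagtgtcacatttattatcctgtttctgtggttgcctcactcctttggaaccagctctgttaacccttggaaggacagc
The *Fgfr1* promoter stretch was 59.2% G and C with 9 CG dinucleotides and held none of the motifs, like the *Etv5* and *Spry2* stretches. The *Fgfr2* stretch held an E-box at bases 39 to 44, another at 177 to 182 and a SOX match, read on the opposite strand, at 166 to 172. The *Fgfr3* stretch, at 74.5% G and C, held a homeodomain match at bases 16 to 21. The *Spry2* stretch was the poorest in G and C, at 40.0%.

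All 10 genes had an interval over a TSS. Accessibility is given as a density, the normalised counts of an interval divided by its length in kb, and a gene's promoter density is taken over all its TSS intervals. The 10 promoter densities ran from 265 ± 14.3 (SD, n = 2) at *Fgf8* to 1989 ± 90.4 at *Fgfr1*. Their median was 845 ± 35.5, which was 0.99 ± 0.02 times the median of 853 ± 20.3 over the 14623 protein-coding genes with a TSS interval. With counts per TSS interval in place of density the same ratio was 2.11, since the TSS intervals of the set were longer than most. By density, 5 of the 10 members were above that median, a level that 50% of genes exceed by definition.

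**Figure D1:**
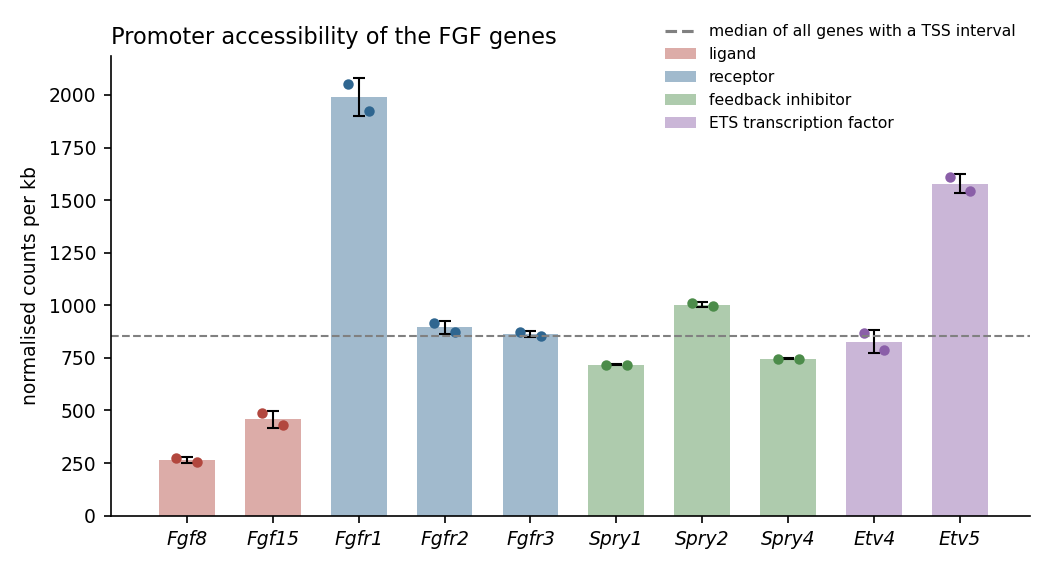
Promoter density of each of the 10 genes in normalised counts per kb; bars are means, error bars the SD of 2 libraries and points the libraries (replicate 1 left, replicate 2 right). *Fgfr1* (1989) and *Etv5* (1579) stand well above the dashed median of all genes with a TSS interval (853), and the ligands *Fgf8* (265) and *Fgf15* (458) well below it.

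The order of promoter densities followed the roles only at its lower end. From high to low it was *Fgfr1*, *Etv5*, *Spry2*, *Fgfr2*, *Fgfr3*, *Etv4*, *Spry4*, *Spry1*, *Fgf15* and *Fgf8*. Of the 9 neighbouring pairs, 8 had values that did not overlap between the 2 libraries, and 1 pair, *Fgfr3* and *Etv4*, overlapped, with a difference of 34.8 ± 41.7. The middle of the order depended on how extra start sites were counted, because *Fgfr2* and *Fgfr3* each had a second TSS interval. With the densest unshared TSS interval of each gene, *Fgfr3* came to 1002 beside *Spry2* at 1003, and *Fgfr2* to 822 beside *Etv4* at 828, and in both of these pairs the libraries overlapped. With 2 libraries no test of these pairs was made, and the ranges of 2 libraries do not cover counting error. The ends of the order also depended on dividing by length. By mean normalised counts of the densest unshared TSS interval, *Fgfr1* (2775) fell below *Spry2* (3281), *Etv5* (3192) and *Fgfr3* (2980). *Fgf15* (1178) then rose above *Spry1* (1121), while *Fgf8* (704) stayed lowest.

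The ligands had the promoters of lowest density in the set. FGF8 patterns the tail end of the embryo and the boundary between midbrain and hindbrain, and the *Fgf8* TSS interval held 730 and 677 counts in replicates 1 and 2, densities of 275 and 255. Both libraries were low, at the 12.1 percentile of genes with a TSS interval. FGF15, the mouse counterpart of human FGF19, is made in the embryonic neural tube and in the gut, and its TSS interval (chr7:144894826-144897398) held 1251 and 1104 counts, densities of 486 and 429. That put it at the 23.2 percentile, 1.73 times above *Fgf8*, and the 2 genes did not overlap between libraries.

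The ligand genes had the fewest intervals of the set. *Fgf8* had 4 distal intervals, and the densest overlapped its own coding exons, 5.08 kb downstream of the centre of the promoter interval (chr19:45736882-45737520). It held 318 and 243 counts, and its density of 439 ± 83.2 was 1.65 ± 0.23 times that of the promoter, higher in both libraries. *Fgf15* had a single distal interval, 6.96 kb upstream (chr7:144888877-144889436), with 172 and 216 counts and a density of 346 ± 55.4. The promoter interval therefore took 85.8% ± 3.0 of the *Fgf15* counts, the largest share in the set, and 59.5% ± 0.2 of those of *Fgf8*.

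The receptor genes carried 84 of the 164 intervals. FGFR1 is the receptor found most widely in early embryonic and neural cells, and its TSS interval (chr8:25518586-25519980, 1395 bp) held 2863 and 2687 counts, densities of 2053 and 1925. Both values exceeded those of every other member, and the mean lay at the 94.0 percentile of genes with a TSS interval. With intervals within 1 kb of a TSS also counted, *Fgfr1* came to 1583, close to *Etv5* at 1579. *Fgfr1* is on chromosome 8, where the median TSS interval was 1.42 ± 0.001 times as dense as on the other autosomes, which ranged from 0.918 to 1.19 times their joint median. Among the 781 chromosome 8 genes with a TSS interval *Fgfr1* stood at the 80.7 percentile, and the part of the chromosome in its rank was not tested. Distal intervals of chromosome 8 had a median density of 126, near the 124 of all distal intervals.

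The body of *Fgfr1* held the strongest distal interval of the whole set. It lay in an intron 25.8 kb downstream of the promoter interval and had 1235 and 1316 counts, densities of 2049 and 2182. With a mean of 2115 ± 93.8 it ranked 156 of 104632 distal intervals and was at 1.07 ± 0.10 times its promoter, so that they differed by less than the spread. Beside it lay 2 further intronic intervals, at 24.2 kb with a density of 1842 ± 27.7 and at 28.9 kb with 1054 ± 34.1. Another, 4.33 kb upstream of the promoter interval and in an intron of a longer transcript, reached 982 ± 24.6. It lay only 0.83 kb from another annotated *Fgfr1* TSS. The TSS interval therefore held only 28.8% ± 1.2 of the counts given to *Fgfr1*, the smallest share among the 10 genes.

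*Fgfr2*, which encodes a receptor of epithelial and neural progenitors, had 50 intervals, more than 99.5% of protein-coding genes. Its own promoter interval (chr7:130263835-130266752) held 2403 and 2397 counts, densities of 824 and 821. A second TSS interval (chr7:133121727-133125102, 3361 and 3100 counts) was counted because 1 annotated *Fgfr2* transcript starts there, 2858 kb upstream, inside the promoter of *Ctbp2*, which encodes a transcriptional corepressor. The 2 genes cannot be told apart in that interval. With it the promoter density of *Fgfr2* was 895 ± 30.5, and without it 822 ± 1.93.

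Of the 48 distal intervals of *Fgfr2*, 20 had a mean above 100 normalised counts, a level that 31.2% of all distal intervals passed, and 7 were above 398, the density that 10% of all distal intervals exceed. The 3 densest were each denser than the gene's own promoter interval in both libraries. The strongest lay 70.3 kb upstream of the main promoter (chr7:130335137-130336029), in an intron of the longer transcript that starts at *Ctbp2*. It had 1431 and 1511 counts and a density of 1647 ± 62.4, which was 1.84 ± 0.13 times the promoter density. The others were intergenic and far downstream, at 217 kb (chr7:130047705-130048933, 1873 and 1846 counts, 1513 ± 16.4) and at 307 kb (chr7:129958091-129958830, 764 and 741 counts, 1017 ± 22.6). Most of the remaining *Fgfr2* intervals were weak, and the median of all 48 was 119 ± 13.5.

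*Fgfr3* encodes a receptor that marks progenitors of the ventricular zone. Its main TSS interval (chr5:33721134-33724108) held 3008 and 2951 counts, densities of 1012 and 992, while a second over a start inside the gene (chr5:33730002-33730524) held only 44 and 31 counts. The 2 densest distal intervals were both upstream in intergenic sequence, 27.2 kb away (chr5:33694772-33696088, 1785 and 1816 counts, density 1367 ± 15.9) and 17.5 kb away (chr5:33704028-33706199, 2806 and 2826 counts, density 1297 ± 5.76). Both exceeded the main promoter interval in each library. Together they held more counts than that promoter.

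**Figure D2:**
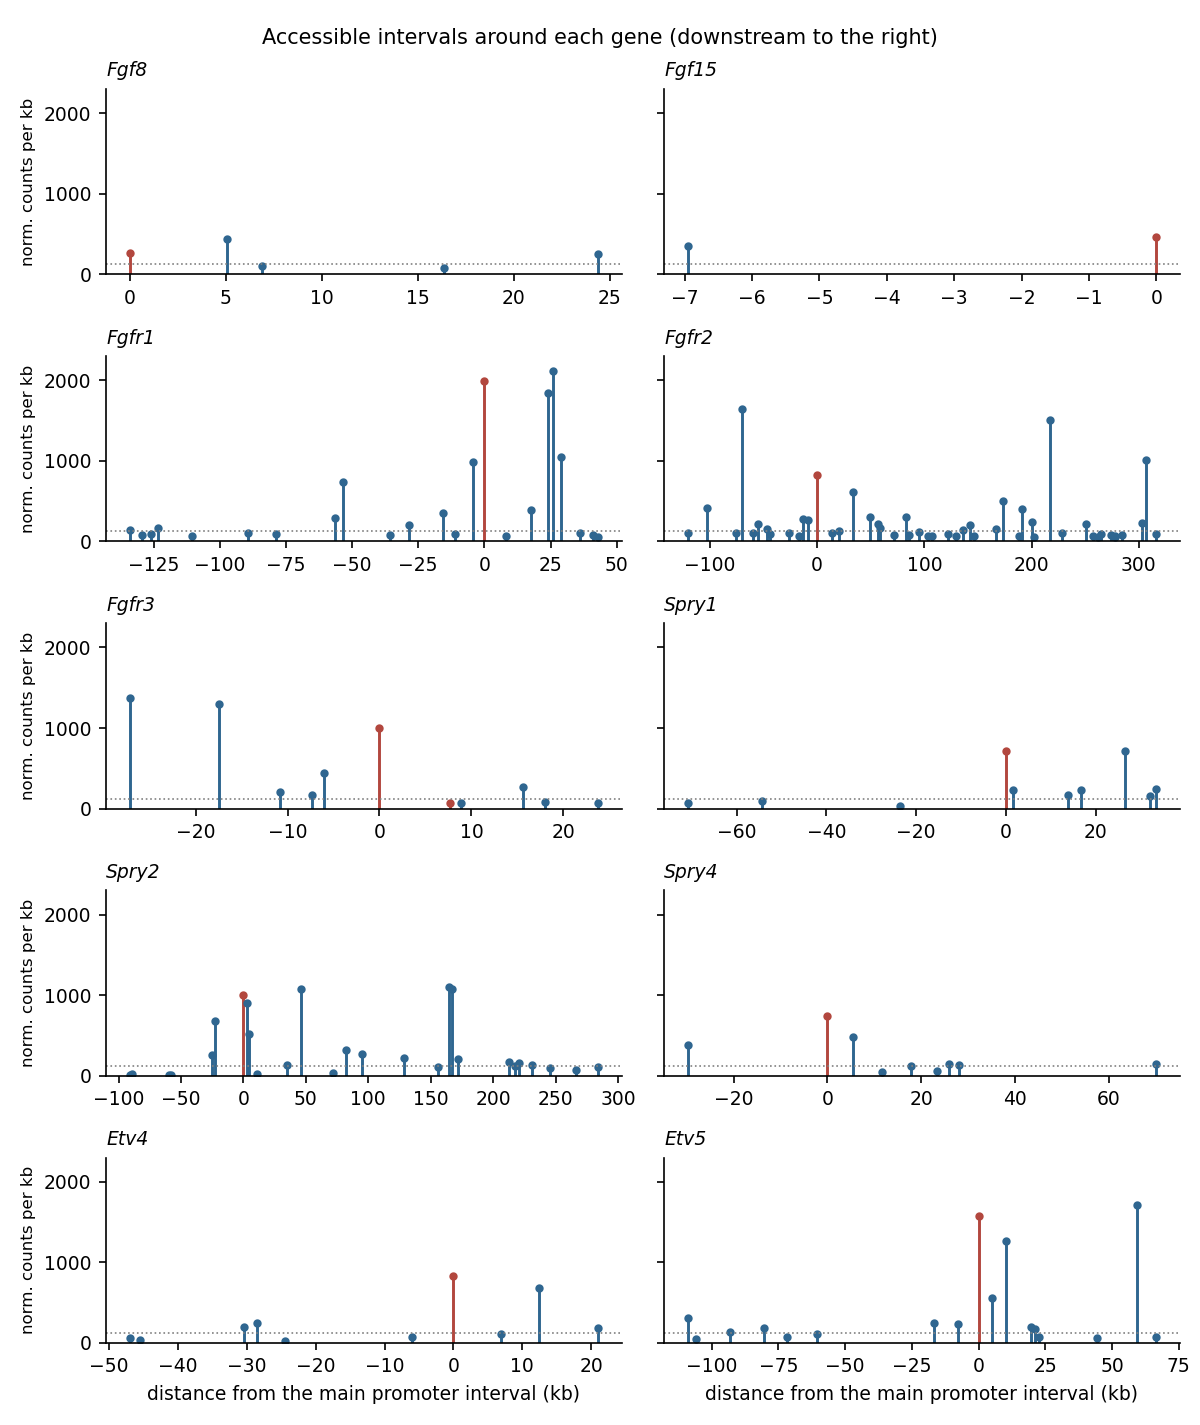
Density of each interval (vertical axis, normalised counts per kb, mean of 2 libraries) against the distance of its centre from the centre of the gene's densest unshared TSS interval (kb, downstream to the right; the horizontal scale differs between panels). TSS intervals are red and distal ones blue, the dotted line is the median of all distal intervals (124), and the interval *Fgfr2* shares with *Ctbp2*, 2858 kb away, is not drawn. The tall blue lines show intervals of *Fgfr1*, *Fgfr2*, *Fgfr3*, *Spry2* and *Etv5* at or above the height of the promoter. Shorter lines of *Fgf8* and *Spry1* also reach the height of their promoters.

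The Sprouty genes, whose proteins restrain signalling from receptor tyrosine kinases to ERK, had promoters near the middle of all genes. *Spry2* was the most accessible, with 3304 and 3258 counts in its TSS interval (chr14:105895994-105899264), densities of 1011 and 996 and a percentile of 60.2. *Spry4* (chr18:38600558-38603546) held 2231 and 2225 counts and a density of 745 ± 1.85. *Spry1* (chr3:37639670-37641231) held 1122 and 1120 counts and a density of 718 ± 1.32. The last pair differed by 27.7 ± 0.53, a small gap that was the same in both libraries.

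The distal intervals of the 3 Sprouty genes were unlike. *Spry2*, which lies in a wide stretch with few other genes, had 26, and 3 of them were above the density of its promoter. Of these, 2 were neighbours, 165 kb downstream (chr14:105732196-105733211, 1118 and 1115 counts, 1099 ± 2.72) and 167 kb downstream (chr14:105730856-105730997, 144 and 161 counts, 1074 ± 84.0), and the third was 46.1 kb downstream (chr14:105851130-105852021, 986 and 926 counts, 1072 ± 48.2). At the other extreme, 4 *Spry2* intervals between 57.9 and 91.2 kb upstream had densities of 11.5 to 15.7, among the lowest of the set, and counts of 2 to 13 in a library.

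*Spry1* had 9 distal intervals and 1 stood apart from the others, 26.5 kb downstream (chr3:37666523-37667388), with 588 and 657 counts and a density of 719 ± 55.9. This was 1.00 ± 0.08 times its promoter. *Spry4* had 8, none of which reached its promoter. The densest was 5.56 kb downstream in its own intron, with 101 and 104 counts and a density of 486 ± 9.77, so that 70.7% ± 0.8 of the *Spry4* counts were in the TSS interval.

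The ETS genes differed from each other in promoter and in surroundings. *Etv5* had the second densest promoter of the set (chr16:22438432-22440453), with 3258 and 3126 counts, densities of 1612 and 1545 and a percentile of 86.0. *Etv4* (chr11:101784254-101785759) had 1306 and 1187 counts, densities of 868 and 788 and a percentile of 48.1, close to the middle of all genes. The libraries of the 2 genes did not overlap, although both factors are of the same PEA3 subfamily and are common readouts of FGF activity.

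Around *Etv5*, the densest distal interval was intergenic, 59.2 kb downstream (chr16:22379831-22380545), with 1255 and 1189 counts and a density of 1709 ± 66.3. It was 1.08 ± 0.01 times the *Etv5* promoter. An intronic interval 10.3 kb downstream (chr16:22428697-22429675) followed with 1241 and 1231 counts and 1263 ± 7.95. Around *Etv4* a single interval exceeded 300 normalised counts per kb, in an exon of a noncoding *Etv4* transcript 12.5 kb downstream (chr11:101772115-101772954), with 592 and 546 counts and 677 ± 39.1, or 0.82 ± 0.01 times its promoter.

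In all, 152 of the 164 intervals were distal. Their median density was 144 ± 3.33, which was 1.16 ± 0.01 times the 124 ± 2.01 of all 104632 distal intervals. The distributions met at the weak end and parted at the strong end: 28 of the 152, or 18.4%, were above the density that 10% of all distal intervals exceed. The density of the median TSS interval, 797 ± 17.7, was exceeded by 15 FGF distal intervals, or 9.87%, against 3.16% of all distal intervals. In 7 of the 10 genes the densest distal interval was above the promoter density on average, although for *Fgfr1* and *Spry1* the excess was within the SD. The same held for 32.2% of the 8379 genes that had both a TSS interval and a distal interval above a mean of 100 normalised counts. It was more frequent where a gene had many intervals: 42.7% of the 3097 such genes with at least 10 intervals, and 6 of the 7 members with as many. These are counts over intervals that share loci and cells, and no test was made of them.

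**Figure D3:**
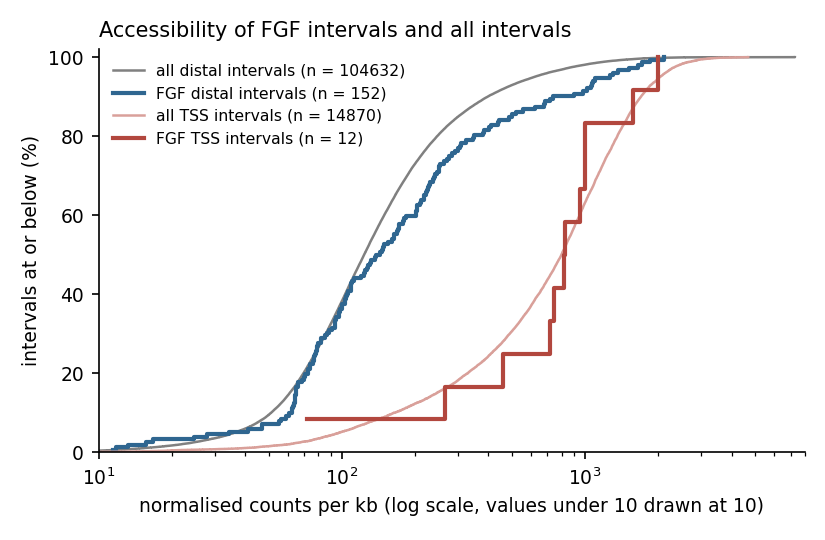
Cumulative share of intervals (%) against density (normalised counts per kb, log scale, mean of 2 libraries) for FGF distal intervals, all distal intervals, FGF TSS intervals and all TSS intervals. The FGF distal curve follows that of all distal intervals below about 100 and lies to its right above that, with 18.4% of its intervals beyond the point that 10% of all distal intervals pass, while the FGF TSS curve stays close to that of all TSS intervals.

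In its comparisons of other samples, the study set aside intervals below a mean of 100 normalised counts. The same number need not mark the same level here. Above 100 normalised counts stood 74 of the 164 intervals, or 45.1% (95% Wilson interval 37.7 to 52.8%), against 38.8% of all intervals. The Wilson interval holds the background share, but the set had fewer TSS intervals, which are mostly above that level, at 7.32% of its intervals against 12.4% of all. Of the distal intervals alone, 63 of 152, or 41.4%, were above it, against 31.2% of all distal intervals. The limit is a count per interval, and the FGF distal intervals were longer, with a median of 560.5 bp against 463 bp. The part of length in this excess was not tested. Among the roles the share was 5 of 7 intervals for the ligands, 39 of 84 for the receptors, 21 of 46 for the Sprouty genes and 9 of 27 for the ETS genes.

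The difference in density was widest close to the genes. Within 10 kb of a TSS, the 26 FGF distal intervals had a median of 251, against 139 for the 22545 distal intervals at that range. Between 10 and 100 kb the medians were 138 and 120, and beyond 100 kb, where 46 FGF intervals lay, they were 104 and 119. By annotation, 87 of the 164 intervals, or 53.0%, were intergenic, against 35.2% of all intervals, and 46, or 28.0%, were in introns, against 39.5%. Introns were read from whole gene records, so that *Fgfr2* intervals upstream of its main promoter counted as intronic. Counts were less concentrated at start sites than elsewhere: 41.0% ± 0.9 of FGF counts were in TSS intervals, against 55.0% ± 0.6 of all counts. The members had a median of 10.5 intervals, against 4 over genes with a TSS interval, although *Fgf15* had only 2, and their TSS intervals were longer, with a median of 2615 bp against 1212 bp.

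The G and C content of the FGF intervals was close to that of their class, and their median CG dinucleotide ratio was higher. The 12 TSS intervals had a median of 62.2% G and C, against 59.9% for all TSS intervals. Their median CG dinucleotide ratio, observed over expected, was 0.748, against 0.680, and 10 of the 12 were above 0.6, against 65.3% of all. The exceptions were the *Spry4* interval, at 0.54, and the weak second interval of *Fgfr3*, at 0.28. The distal intervals had a median of 50.0% G and C, against 48.4%, and a median CG ratio of 0.273, against 0.208. Their share above 0.6 was not higher, at 4 of 152, or 2.63%, against 2.75% of all distal intervals.

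Short motifs, 7 in all, were counted in the 300 bases around the centre of each interval. They were an ETS core (CCGGAAGT), an E-box (CAGCTG), a homeodomain core (TAATTA), a SOX core (ACAATGG), a TCF/LEF core (CTTTGAT), a GLI core (TGGGTGGTC) and the DR5 retinoic acid response element, made of a pair of AGGTCA or AGTTCA half-sites with 5 bases between them. None of these overlapped another in the sequences shown. The E-box was in 31 of 152 FGF distal windows, or 20.4% (95% Wilson interval 14.8 to 27.5%), against 22.9% of all distal windows. Over whole intervals, which differ in length, it was in 63 of the 152, or 41.4%, against 36.2% of all, so that the order turned. In the TSS windows it was in 2 of 12, or 16.7%, against 17.2%, and over whole TSS intervals in 9 of 12, or 75%, against 52.2%. The SOX core was in 14, or 9.21%, against 8.49%, the homeodomain core in 13, or 8.55%, against 7.79%, and the TCF/LEF core in 4, or 2.63%, against 4.70%. For these 4 motifs, in the windows, the 95% Wilson interval of the FGF share held the share of all distal windows.

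The ETS and GLI cores were in 0 of the 152 FGF distal windows, which allows a share of up to 1.97% by a limit of 3 counts and 2.46% by the Wilson interval, against 0.399% and 0.497% of all distal windows. Over whole distal intervals the GLI core was in 2 of the 152, or 1.32%, against 0.896% of all, so that its order turned. The ETS core was still in 0, against 0.744%. Both were also in 0 of the 12 FGF TSS windows, which allows up to 25% by the limit of 3 counts, against 4.46% and 0.309% of all TSS windows. The DR5 element was in 1 FGF distal window, of a *Spry1* intron interval 1.83 kb from the TSS (chr3:37641908-37642211, density 225), against 0.149% of all distal windows. Matches fell on some of the strongest intervals described above and not on others. The windows of the *Etv5* interval at 1709, the *Spry2* intervals at 1099, 1074 and 1072 and the *Fgfr1* interval at 1054 held none. Whether matches go with density was not tested. The downstream *Fgfr2* interval with a density of 1513 held the SOX core 3 times, the *Fgfr3* interval at 1297 an E-box and a TCF/LEF core, and the *Etv5* intron interval at 1263 and the *Fgfr1* intron interval at 1842 an E-box each. A match in these letters shows no binding, and the absence of one says only that the letters are not in the window.

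The rest of the FGF pathway gave the members a frame. Of 60 further genes, 59 were found in the annotation and 55 had a TSS interval, with a median promoter density of 941 ± 4.2, and 30 were above the median of all genes with one. The groups differed. Among the other ligands and FGF homologous factors, 17 of 20 had a TSS interval and only *Fgf18* was above that median, and their own median was 374 ± 8.61. The 8 adaptor genes and the 8 other feedback inhibitor genes with a TSS interval, which include *Dusp6*, a phosphatase of ERK, were all above it, with medians of 1170 ± 1.31 and 1197 ± 29.4. Of the cascade genes 6 of 10 were above it, of the other transcription factors and targets 6 of 8, and of the other receptors and co-receptors 1 of 4.

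Among single pathway genes, the highest promoter densities were those of *Gab1*, a docking adaptor, at 2363 ± 40.0, *Fgfrl1*, a receptor without a kinase, at 2017 ± 126 and *Shc1*, an adaptor, at 1959 ± 34.6. *Gab1* is on chromosome 8, like *Fgfr1*. The lowest were 3 ligand genes, *Fgf6* at 54.4 ± 5.10, *Fgf1* at 76.5 ± 5.86 and *Fgf4* at 169 ± 8.26. *Fgf7*, *Fgf11*, *Fgf21* and *Spred3* had no TSS interval. The low promoters of *Fgf8* and *Fgf15* thus lay within the range of the other ligands, *Fgf8* below their median and *Fgf15* above it.

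**Figure D4:**
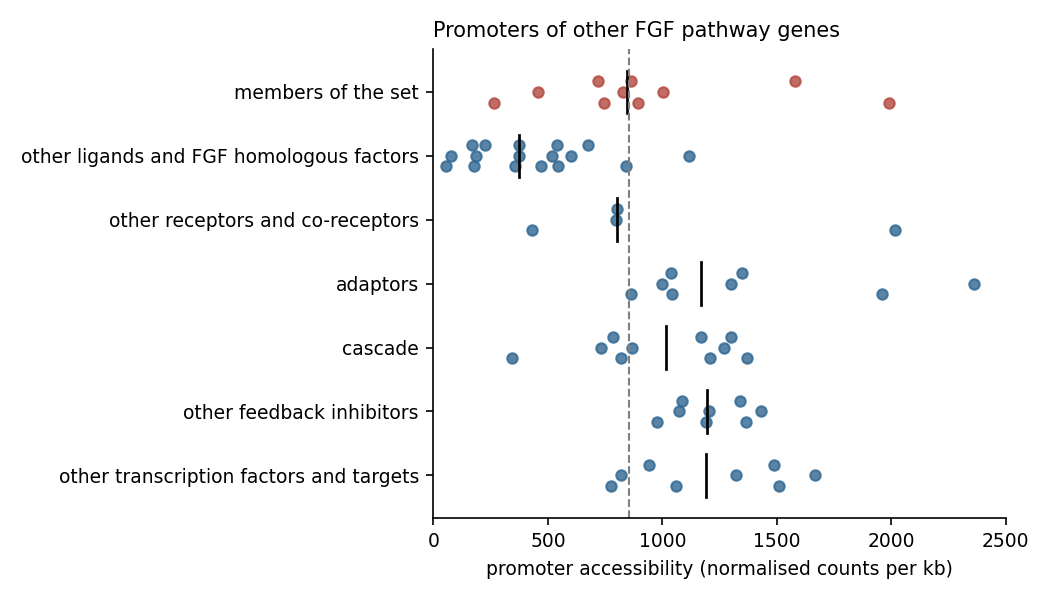
Promoter density (normalised counts per kb, mean of 2 libraries) of the 10 members (red) and of the other FGF pathway genes with a TSS interval (blue), by role; black bars are group medians and the dashed line the median of all genes with a TSS interval (853). The other ligands lie mostly to the left of the line, with a median of 374, and all adaptors and other feedback inhibitors to its right.

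The promoters of cell type markers were read as a check on the label of the cells. All 7 pMN and neural progenitor markers had a TSS interval, with promoter densities of 613 to 1498, *Olig2* among them at 946 ± 23.2. Of 5 motor neuron markers, 4 had one, at 300 (*Slc18a3*), 557 (*Mnx1*), 1087 (*Isl1*) and 2268 (*Isl2*), and *Chat* had none. Of the feeder fibroblast markers 4 of 6 had one, up to 459, with none at *Col1a1* and *Col3a1*, and of the pluripotency markers 3 of 4, up to 565, with none at *Nanog*. *Slc18a3* and *Mnx1* thus lay below the highest pluripotency value, that of *Klf4*. Above the all-gene median of 853 were 4 progenitor and 2 motor neuron markers, and 0 of the fibroblast or pluripotency markers. An open promoter does not show that its gene is transcribed, and the share of other cells in the sort, including motor neurons, was not tested.

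The 2 libraries gave nearly the same picture of these genes. Over the 164 intervals R2 of log2(normalised count + 1) was 0.970, and over all 119502 it was 0.968. In an exact two-sided binomial test of each interval between the libraries, 0 of the 164 were called at a Benjamini-Hochberg adjusted p under 0.01, as were 0% of all intervals. At an unadjusted p under 0.05 there were 20, or 12.2%, 10 higher in each library, against 8.39% of all. This test compares 2 libraries and no condition.

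The largest differences among the 74 stronger intervals were at an intron of the longer *Fgfr2* transcript, upstream of the main promoter (chr7:130290719-130291895), and downstream of *Spry1* (chr3:37673703-37674304). The first held 100 and 156 counts, a log2 difference of 0.64 (replicate 2 minus replicate 1), and was the only 1 of the 74 over 1.5-fold apart, with an adjusted p of 0.206 in the exact binomial test. The second held 127 and 169 counts, a log2 difference of 0.41 and an adjusted p of 0.466 in the same exact test. No interval of the set had a count of 0 in either library, and the lowest count was 2.

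**Figure D5:**
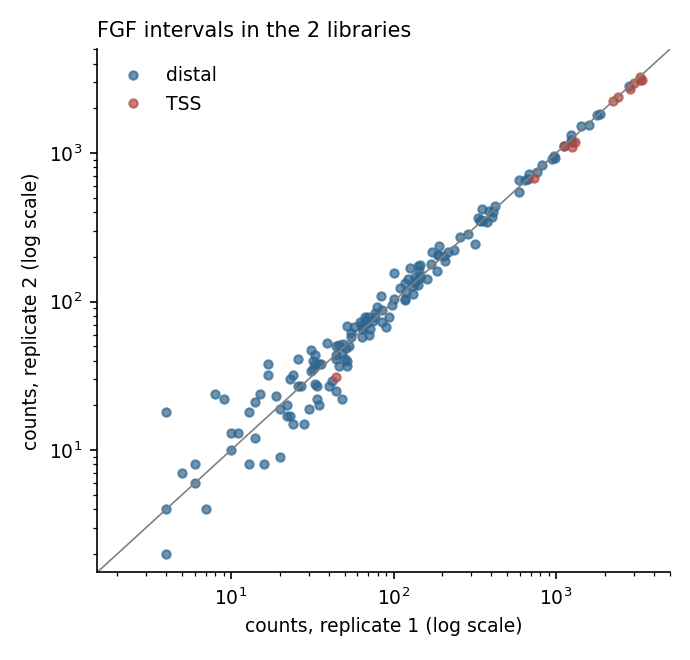
Counts of the 164 FGF intervals in replicate 1 (horizontal) and replicate 2 (vertical), both on log scales, with TSS intervals in red, distal ones in blue and the line of equal counts in grey. The points follow the line over the whole range from 2 to 3361 counts and scatter more widely below about 100.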

How the data were processed

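Omni-ATAC-seq of sorted mKate2-positive cells gave 2 libraries of 1 group. The authors processed the reads with the nf-core atacseq pipeline on mm10, required peaks in at least 2 replicates, and deposited raw read counts per interval, made with featureCounts 2.0.1 in paired mode, with a read given to every interval it covers by at least 0.2 of its length. The intervals were defined over 5 libraries, and 3 count columns that match no sample here were not used.

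Normalised counts are raw counts over the size factor of DESeq2 1.42.0, and densities are these per kb of interval. TSSs were the 5′ ends of GENCODE vM21 protein-coding transcripts. The plan had named the 5′ end of the gene record; this was replaced after it was seen, from the annotation alone, that it leaves out the main promoters of *Fgfr1* and *Fgfr2*, and is now an alternative. Distance was edge to TSS, ties kept. Values are means of the 2 libraries with their SD. Medians and ratios given with an SD were taken per library and then averaged. The medians of the other pathway genes are an exception. They are medians of the genes' means, with the SD of the medians of the 2 libraries. The libraries were compared with the exact binomial test (scipy 1.17.1, Benjamini-Hochberg over all intervals), tested on simulated data. Intervals were annotated with bedtools 2.31.1. Distances in the text run between interval centres, from the densest unshared TSS interval, unless a distance to the TSS is named. Sequences were read from GRCm38.p6, whose chromosome lengths hold all intervals; the RefSeq promoter table of that build listed 5 members, and all 7 of its entries were read identically. The sequences and positions of 2 intervals are not reported here.

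The members, gene lists and tests were chosen with earlier results of these data known. Named were all members with their TSS intervals, each one's densest distal interval above a mean of 100, the 2 largest library differences, and the pathway genes with the 3 highest, the 3 lowest or no promoter densities; other intervals, *Dusp6*, *Fgf18* and the marker genes were named after their values were seen. Confidence intervals and limits on shares were computed over numbers of chromatin intervals or sequence windows, which share loci, and cover counting error only.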

Additional observations from a re-analysis of the deposited data

How the results depend on the processing

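Scaling by edgeR TMM factors or total counts changed neither the share of intervals above 100 normalised counts, the median promoter density beyond its SD, nor the 0 calls between libraries; TMM gave 6 calls among all intervals, none in the set, and a limit of 0.05 gave 33, none in the set. The number of intervals was 128 with the TSS of the gene record, 163 with midpoint distances and 118 within 100 kb. The share above the count limit was 62.8% at 50 and 28.7% at 200 normalised counts, 46.1% with the gene record, 45.6% without *Fgfr2* and 45.1 to 45.7% without either replicate. With intervals within 1 kb of a TSS, the promoter density of *Fgfr1* came to 1583, beside 1579 for *Etv5*. That of *Fgfr3* came to 726, below 745 for *Spry4*. The median promoter density was 787 with such intervals, and 820 to 870 without either replicate. Its ratio to all genes crossed 1: it was 0.98 without replicate 1, 1.003 without replicate 2, 0.969 without *Fgfr1*, and 2.11 with counts per interval in place of density, where the longer TSS intervals of the set count in full. The ratio of distal medians kept its direction, at 1.31 with counts per interval, 1.25 within 100 kb of a TSS, 1.25 without *Fgfr2*, 1.18 without *Fgfr1*, and 1.16 to 1.17 without either replicate. Leaving out *Fgfr1*, *Fgfr2* or the interval shared with *Ctbp2*, and taking the densest TSS interval alone, were added after the data were seen. Of 77 further alternatives for single promoters, R2 and motif shares, 64 stayed within the spread, 13 moved and 0 reversed. With whole intervals the E-box and GLI shares of the distal intervals went from below those of all distal intervals to above them. No paired analysis was possible because the design holds a single group. With 2 libraries, the SD itself is poorly known.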
